A study of Mus musculus with 22 samples.

Results

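The phagocyte NADPH oxidase is an enzyme of macrophages and neutrophils, and the 6 genes described here are 5 of its components and 1 related oxidase, chosen by name from the 55401 gene identifiers in the counts. All 6 were found and all 6 passed the filter on low counts. *Cybb* encodes gp91phox, the membrane subunit that passes electrons from NADPH to oxygen, and *Cyba* encodes p22phox, the partner that holds gp91phox in the membrane and also pairs with *Nox4*. *Ncf1* (p47phox) and *Ncf4* (p40phox) are cytosolic subunits that move to the membrane when the cell is stimulated, and *Rac2* is the small GTPase of blood cells that joins them there. *Nox4* encodes an oxidase of fibroblasts and other non-phagocytic cells that needs *Cyba* but none of the cytosolic subunits, and it was included for contrast.

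The oxidase makes superoxide, which is used to kill engulfed microbes and is turned into hydrogen peroxide by superoxide dismutases. gp91phox and the cytosolic subunits are textbook products of myeloid cells, whereas p22phox is made by many cell types. *Nox4* is regulated mainly through the amount of its mRNA, and TGF-beta is a known inducer of it in fibroblasts.

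The libraries were 22 poly(A) RNA-seq samples of mouse embryonic fibroblasts (MEFs) of C57BL/6 background, with passage 3 called early and passage 8 called late. In the S6K1 set there were 4 early WT, 4 late WT and 3 late S6K1 KO libraries, and in the S6K1/S6K2 set 4 early WT, 4 late WT and 3 late S6K1/S6K2 DKO libraries. No early KO or DKO library was analysed here. Per the study's methods, replicates were MEFs of different embryos, S6K1 KO and WT MEFs were littermates, and DKO MEFs came from other crosses than their WT controls, so litter and genotype cannot be told apart in the S6K1/S6K2 set. MEFs are primary cultures grown from dissociated embryos and can hold more than 1 cell type.

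Total counts were between 10742454 and 17314832 per library, so that 3 counts were worth 0.173 to 0.279 CPM (counts-per-million, scaled by TMM factors for the levels below). *Rps6kb1*, which encodes S6K1, was at 63.5 CPM in late WT and 20 CPM in S6K1 KO MEFs, and at 73.7 CPM in late WT and 23.9 CPM in DKO MEFs of the other set. *Rps6kb2*, which encodes S6K2, was at 13.2 CPM in late WT and 0.811 CPM in DKO MEFs. The 10 fibroblast markers, *Col1a1* and *Pdgfra* among them, summed to 13360 to 33690 CPM over the 22 libraries, with lower sums in late than in early WT libraries of each set. Y-linked genes were expressed in 12 of the 22 libraries: 2 of 4 early WT, 1 of 4 late WT and 3 of 3 KO libraries in the S6K1 set, and 2 of 4, 3 of 4 and 1 of 3 DKO libraries in the S6K1/S6K2 set. *Cybb* is on the X chromosome, so values with the Y-linked level as a covariate are given beside the genotype results.

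The genes lie at separate places in the mouse genome (RefSeq, build GRCm38). *Cybb* is at chrX:9435252-9487766, *Cyba* at chr8:122424771-122432940, *Ncf1* at chr5:134220053-134229628 and *Nox4* at chr7:87244430-87398710. *Ncf4* at chr15:78244164-78262582 and *Rac2* at chr15:78559169-78572783 are on the same chromosome. The promoter windows of *Cybb*, *Ncf1*, *Cyba* and *Nox4*, from 250 bases before to 50 bases after the annotated start site, are shown because these are the 4 of the 6 genes for which the RefSeq table held a window. They are RefSeq sequence, build GRCm38.p6, 5′ to 3′ on the strand of the gene, at chrX:9469275-9469574 (minus strand), chr5:134229576-134229875 (minus strand), chr8:122432891-122433190 (minus strand) and chr7:87246399-87246698 (plus strand). For *Cybb* and *Nox4* the start site used lies inside the span of the gene given above. Capitals mark 2 short motifs searched on both strands: GAGGAA (or TTCCTC), the core of sites for PU.1 and related ETS factors, and GGGCGG (or CCGCCC), the GC box.
Cybb: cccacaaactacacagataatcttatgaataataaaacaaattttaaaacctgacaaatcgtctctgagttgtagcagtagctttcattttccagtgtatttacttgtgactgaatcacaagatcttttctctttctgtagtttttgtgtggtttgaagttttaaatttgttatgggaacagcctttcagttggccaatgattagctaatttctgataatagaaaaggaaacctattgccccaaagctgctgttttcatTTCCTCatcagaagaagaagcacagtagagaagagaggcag
Ncf1: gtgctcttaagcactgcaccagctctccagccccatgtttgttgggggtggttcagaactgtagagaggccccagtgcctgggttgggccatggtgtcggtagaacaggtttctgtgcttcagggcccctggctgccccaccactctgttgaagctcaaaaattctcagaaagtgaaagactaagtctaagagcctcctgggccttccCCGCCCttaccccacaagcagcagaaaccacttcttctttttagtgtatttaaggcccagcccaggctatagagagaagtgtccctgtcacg
Cyba: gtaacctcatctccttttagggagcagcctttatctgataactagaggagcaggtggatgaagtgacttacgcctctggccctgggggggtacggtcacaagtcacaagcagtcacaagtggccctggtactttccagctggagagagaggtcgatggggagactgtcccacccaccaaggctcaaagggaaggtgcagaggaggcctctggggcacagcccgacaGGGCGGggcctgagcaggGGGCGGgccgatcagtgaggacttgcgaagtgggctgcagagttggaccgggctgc
Nox4: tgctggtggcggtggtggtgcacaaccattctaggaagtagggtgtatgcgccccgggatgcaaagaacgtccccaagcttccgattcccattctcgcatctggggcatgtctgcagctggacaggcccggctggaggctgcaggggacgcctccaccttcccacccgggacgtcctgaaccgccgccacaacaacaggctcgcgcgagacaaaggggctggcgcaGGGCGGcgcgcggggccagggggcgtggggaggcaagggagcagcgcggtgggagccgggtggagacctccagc

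In the *Cybb* window the PU.1-type core was the only marked motif, at base 260, which is base 10 of the transcript. The *Ncf1* window held 1 GC box at base 209, the *Cyba* window 2 GC boxes at bases 227 and 245, and the *Nox4* window 1 GC box at base 227. Of the 32851 promoter windows of this length in the table, 28.3% held GAGGAA and 35.7% held GGGCGG on either strand, so that both motifs are common. The windows differed in base composition. CpG dinucleotides numbered 1 in *Cybb*, 3 in *Ncf1*, 9 in *Cyba* and 24 in *Nox4*, against a median of 7 over all windows, and 35.3%, 54.0%, 60.7% and 68.3% of the bases were G or C. The window with the fewest CpG belonged to *Cybb*, and that with the most to *Nox4*. Motif matches and base composition are descriptions of the sequence, and their part in the levels was not tested.

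The first comparison asked how the oxidase genes differed between early and late WT MEFs. *Cybb*, *Ncf1*, *Ncf4* and *Rac2* rose in late WT MEFs in both sets, by 4.92-fold to 10.9-fold. *Cyba* rose by 1.91-fold in the S6K1 set and did not pass the test in the S6K1/S6K2 set. *Nox4* did not pass the test in either set. In the S6K1 set 5 of the 6 genes were called higher at a false discovery rate of 5% (edgeR quasi-likelihood test), where 6.96% of the 14132 genes tested were higher and 5.97% lower. In the S6K1/S6K2 set 4 of 6 were called higher, where 8.28% of 14365 genes were higher and 4.89% lower.

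*Cybb* was at 5.09, 8.00, 7.91 and 7.74 CPM in the 4 early WT libraries of the S6K1 set and at 113, 54.1, 79.5 and 67.2 CPM in the 4 late WT libraries. In the S6K1/S6K2 set it was at 6.74, 4.10, 10.2 and 12.9 CPM in early WT and at 74.8, 76.7, 96.1 and 48.2 CPM in late WT libraries. Every late WT library of a set was above every early WT library of that set. The log2 fold change was 3.45 ± 0.24 (SE; adjusted p = 1.04e-05, edgeR) in the S6K1 set and 3.16 ± 0.43 (adjusted p = 0.00134) in the S6K1/S6K2 set.

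*Ncf1* was at 6.65, 9.87, 10.01 and 8.44 CPM in early WT and at 118, 42.4, 84.3 and 62.1 CPM in late WT libraries of the S6K1 set. Its values in the S6K1/S6K2 set were 5.74, 4.65, 14.6 and 17.5 CPM in early WT and 60.1, 91.5, 92.3 and 61.8 CPM in late WT libraries. The 4 late WT libraries of the S6K1 set stood in the same order for *Ncf1* as for *Cybb*, with replicate 1 highest and replicate 2 lowest. Log2 fold changes were 3.13 ± 0.29 (SE; adjusted p = 3.94e-05, edgeR) and 2.88 ± 0.44 (adjusted p = 0.0025).

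*Ncf4* was the lowest of the phagocyte genes in CPM. It had 2.79, 2.39, 4.19 and 0.0880 CPM in early WT libraries of the S6K1 set, the last from 1 count, and 30.7, 12.5, 21.6 and 13.0 CPM in late WT libraries. The S6K1/S6K2 set had 2.15, 1.96, 3.698 and 4.30 CPM in early WT and 16.8, 19.9, 14.7 and 10.1 CPM in late WT libraries. The groups did not overlap in either set, and the log2 fold changes were 2.99 ± 0.56 (SE; adjusted p = 0.00439, edgeR) and 2.38 ± 0.32 (adjusted p = 0.00098).

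*Rac2* was at 7.13, 5.31, 11 and 5.54 CPM in early WT and at 55.2, 29.0, 49.7 and 25.0 CPM in late WT libraries of the S6K1 set. Its levels in the S6K1/S6K2 set were 6.79, 2.69, 12.1 and 12.0 CPM in early WT and 44.7, 51.3, 31.2 and 34.6 CPM in late WT libraries. The log2 fold changes were 2.44 ± 0.31 (SE; adjusted p = 0.00033, edgeR) and 2.30 ± 0.44 (adjusted p = 0.00729). As for *Cybb*, *Ncf1* and *Ncf4*, early and late WT libraries did not overlap.

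*Cyba*, which is not limited to phagocytes, started from a higher level. It was at 134, 183, 145 and 157 CPM in early WT and at 311, 306, 302 and 262 CPM in late WT libraries of the S6K1 set, a log2 fold change of 0.93 ± 0.16 (SE; adjusted p = 0.00232, edgeR) with no overlap. It was at 128, 149, 217 and 242 CPM in early WT and at 205, 291, 328 and 227 CPM in late WT libraries of the S6K1/S6K2 set. These groups overlapped, and the log2 fold change of 0.54 (95% interval 0.02 to 1.07) had an adjusted p of 0.146.

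*Nox4* was at 21.4, 12.4, 20.9 and 18.7 CPM in early WT and at 18.2, 17.3, 11.4 and 16.7 CPM in late WT libraries of the S6K1 set. Libraries of the S6K1/S6K2 set had 21.2, 15.4, 18.8 and 19.5 CPM in early WT and 21.1, 11.1, 15.1 and 13.9 CPM in late WT. Early and late WT overlapped in both sets. Log2 fold changes were -0.22 (95% interval -0.66 to 0.22; adjusted p = 0.527, edgeR) and -0.26 (-0.70 to 0.18; adjusted p = 0.417), and both intervals lie under the rise of *Cybb*, *Ncf1*, *Ncf4* and *Rac2*.

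The early and late WT groups did not overlap for 5 of the 6 genes in the S6K1 set, where 9.21% of tested genes were higher without overlap, and for 4 of 6 in the S6K1/S6K2 set, where 10.3% were. None of the 6 genes was shown to differ between sets in its change with passage. By edgeR 0 of 6 interactions were called, where 0.712% of 14886 genes were, and DESeq2 called 0 of 6. An unadjusted p under 0.05 by edgeR was found for 0 of the 6 genes and for 1421 of the 14886. The median log2 fold change of the 6 genes was 2.72 and 2.34, beside -0.038 and 0.013 over all genes tested.

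**Figure D1:**
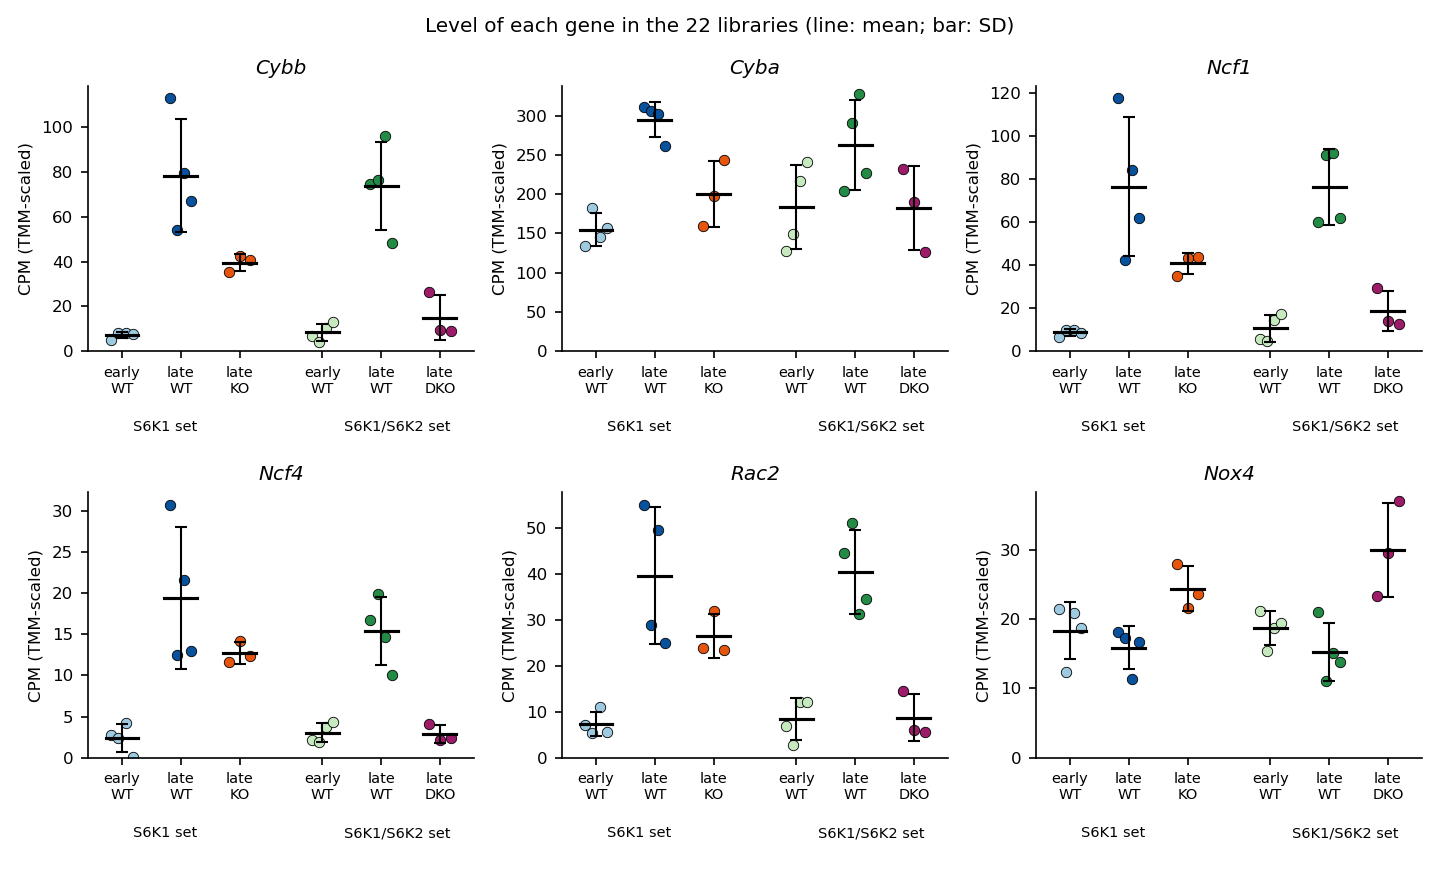
TMM-scaled CPM (y axis, linear from 0) of the 6 genes in each of the 22 libraries (points), by group (x axis), with the group mean (line) and SD (bar). *Cybb*, *Ncf1*, *Ncf4* and *Rac2* are high in late WT MEFs of both sets, between early and late WT means in KO MEFs, and low in DKO MEFs. *Nox4* is highest in the DKO group, with a mean of 30.0 CPM.

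The second comparison asked how late KO or DKO MEFs differed from late WT MEFs of the same passage. In DKO MEFs *Cybb*, *Ncf1*, *Ncf4* and *Rac2* fell, by a fitted 4.15-fold to 5.41-fold, while *Nox4* rose by 1.94-fold. In S6K1 KO MEFs the fitted values of the 5 phagocyte genes were lower and that of *Nox4* higher, but none of the 6 passed the test. DKO calls numbered 4 lower and 1 higher of 6, where 3.95% of 14365 genes were lower and 0.821% higher. For S6K1 KO MEFs, 0.0425% of 14132 genes were called in either direction by edgeR. The late WT libraries enter both this comparison and that of passage, so the rise with passage and the lower level in KO or DKO MEFs are not independent results.

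In the 3 DKO libraries *Cybb* was at 26.5, 9.29 and 9.21 CPM, against 48.2 to 96.1 CPM in late WT libraries. Replicate 1 was the highest of the 3 for *Cybb* and was above the 2 others for *Cyba*, *Ncf1*, *Ncf4* and *Rac2* too, but lay under every late WT library for *Cybb*. The log2 fold change of *Cybb* was -2.32 ± 0.46 (SE; adjusted p = 0.0183, edgeR), and with the Y-linked level as a covariate it was -2.46 (adjusted p = 0.0352).

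*Ncf1* had 29.3, 13.9 and 12.7 CPM in DKO libraries, a log2 fold change of -2.05 ± 0.47 (SE; adjusted p = 0.0329, edgeR). *Ncf4* had 4.14, 2.13 and 2.35 CPM, a log2 fold change of -2.44 ± 0.36 (SE; adjusted p = 0.00487, edgeR). *Rac2* had 14.6, 6.10 and 5.50 CPM, a log2 fold change of -2.23 ± 0.49 (SE; adjusted p = 0.0275, edgeR). For each of these cytosolic components the 3 DKO libraries lay under the 4 late WT libraries.

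*Cyba* had 232, 190.0 and 126 CPM in DKO libraries, within and below the late WT range, and its log2 fold change of -0.54 (95% interval -1.11 to 0.03) had an adjusted p of 0.298 (edgeR). *Nox4* had 23.4, 29.6 and 37.0 CPM, above the 11.1 to 21.1 CPM of late WT libraries. Its log2 fold change was 0.96 ± 0.22 (SE; adjusted p = 0.0275, edgeR). DKO replicates stood in opposite orders for *Cyba* and *Nox4*, with replicate 1 highest for *Cyba* and replicate 3 highest for *Nox4*.

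The DKO calls depended on single libraries. Leaving out DKO replicate 2 or DKO replicate 3 left 1 of the 5 calls each, that of *Ncf4*, leaving out late WT replicate 2 left 2, and leaving out late WT replicate 3 or 4 left 3 and 4. Over the 11 fits that each left out 1 library, the log2 fold change of *Cybb* was between -3.00 and -2.05 and that of *Nox4* between 0.78 and 1.16, so that no direction changed. With the Y-linked level as a covariate *Ncf1* (adjusted p = 0.0543) and *Nox4* (adjusted p = 0.0565) were no longer called, and without a filter on low counts *Cybb* (adjusted p = 0.0750), *Ncf1* (0.130) and *Rac2* (0.114) were not. *Nox4* also lost its call when the fit held only late WT and DKO libraries (adjusted p = 0.0708). The covariate gave log2 fold changes of -0.50 for *Cyba*, -2.14 for *Ncf1*, -2.43 for *Ncf4*, -2.37 for *Rac2* and 0.93 for *Nox4*.

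In the 3 S6K1 KO libraries *Cybb* was at 35.2, 42.6 and 40.5 CPM, below every late WT library of its set. The log2 fold change was -0.99 (95% interval -1.52 to -0.47), with an unadjusted p of 0.00129 and an adjusted p of 0.194 (edgeR). DESeq2 called it (adjusted p = 0.0148), and with the Y-linked level as a covariate the edgeR value was -0.92 (adjusted p = 0.193). *Cyba*, at 160, 198 and 244 CPM, was also under every late WT library, with a log2 fold change of -0.56 (-0.93 to -0.19; adjusted p = 0.284, edgeR).

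*Ncf1* was at 35.2, 43.5 and 43.8 CPM, *Ncf4* at 11.6, 14.2 and 12.3 CPM and *Rac2* at 23.9, 32.1 and 23.5 CPM in KO libraries. These overlapped the late WT libraries, through replicate 2 for all 3 genes and also replicate 4 for *Ncf4* and *Rac2*. Log2 fold changes were -0.91 (95% interval -1.54 to -0.29; adjusted p = 0.308, edgeR), -0.61 (-1.82 to 0.59; adjusted p = 0.741) and -0.59 (-1.27 to 0.10; adjusted p = 0.549). *Nox4*, at 27.99, 21.7 and 23.6 CPM, was above every late WT library, with a log2 fold change of 0.62 (0.15 to 1.09; adjusted p = 0.343). With the Y-linked level as a covariate the log2 fold change was -1.21 for *Ncf4* and -1.05 for *Rac2* (adjusted p = 0.446 and 0.192, edgeR), larger falls in the fit than without it. It was -0.47 for *Cyba*, -0.94 for *Ncf1* and 0.59 for *Nox4*, and none was called.

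At an unadjusted p under 0.05 by edgeR, 4 of the 6 genes differed between S6K1 KO and late WT MEFs, where 1499 of 14132 tested genes did. DESeq2 called 1 of 6, where it called 250 of 14825 genes. Of the 6 genes, 2 were lower and 1 was higher without overlap in KO MEFs, where 6.19% of tested genes were lower and 7.05% higher in that way. In DKO MEFs 4 were lower and 1 higher without overlap, where 10.0% of tested genes were lower and 6.37% higher.

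The change in DKO MEFs was not shown to differ from that in KO MEFs. The interaction of genotype and set was -1.31 on the log2 scale for *Cybb* (95% interval -2.37 to -0.25; adjusted p = 0.375, edgeR), -1.81 for *Ncf4* (-3.28 to -0.34; adjusted p = 0.376) and -1.63 for *Rac2* (-2.85 to -0.41; adjusted p = 0.338). *Cyba* had an interaction of 0.04 (-0.64 to 0.70) and *Nox4* of 0.35 (-0.31 to 1.01). By edgeR 0 of 6 genes were called, where 0.00672% of 14886 genes were, and DESeq2 called 0 of 6. An unadjusted p under 0.05 by edgeR was found for 3 of the 6 genes and for 1626 of the 14886 genes tested.

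**Figure D2:**
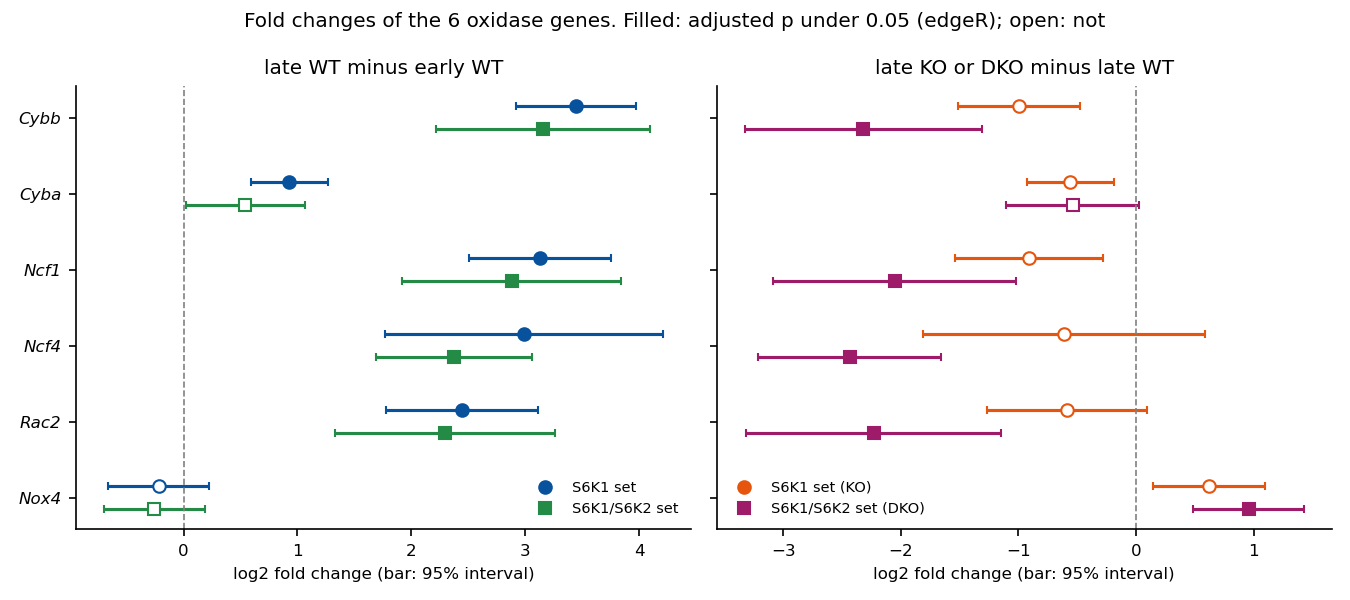
Log2 fold change (x axis, with 95% interval) of each gene (y axis), between late and early WT MEFs on the left and between late KO or DKO and late WT MEFs on the right. Filled points passed an adjusted p of 0.05 (edgeR). The 4 phagocyte genes that rose in both sets lie between 2.30 and 3.45 on the left, and in DKO MEFs between -2.44 and -2.05 on the right.

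Setting late KO and DKO MEFs against early WT MEFs completed the order of the groups. In S6K1 KO MEFs *Cybb* was 5.48-fold, *Ncf1* 4.66-fold, *Ncf4* 5.21-fold and *Rac2* 3.62-fold above early WT, and these 4 of 6 genes were called higher, where 5.93% of tested genes were (adjusted p between 0.000272 and 0.0223, edgeR). *Ncf4* was no longer called when KO replicate 1, 2 or 3 or early WT replicate 2 was left out (adjusted p between 0.0545 and 0.0667), with the Y-linked level as a covariate (0.0586) or without a filter on low counts (0.0934). *Cyba* had a log2 fold change of 0.37 (adjusted p = 0.170) and *Nox4* of 0.40 (adjusted p = 0.242).

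In DKO MEFs none of the 5 phagocyte genes passed the test against early WT. *Cybb* had a log2 fold change of 0.84 (95% interval -0.13 to 1.80; adjusted p = 0.209, edgeR), *Ncf1* of 0.83 (-0.16 to 1.82), *Ncf4* of -0.06 (-0.82 to 0.70), *Rac2* of 0.07 (-0.98 to 1.11) and *Cyba* of 0.005 (-0.56 to 0.57). These intervals still allow a rise of more than 1 log2 unit for *Cybb*, *Ncf1* and *Rac2*. *Nox4* was 1.62-fold above early WT (adjusted p = 0.0422), the 1 call among the 6, where 9.34% of tested genes were called higher. This call was lost when early WT replicate 1, 2, 3 or 4 or DKO replicate 2 or 3 was left out (adjusted p between 0.0624 and 0.141) and with the Y-linked level as a covariate (0.0538).

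For *Cybb* the order in the S6K1 set was therefore early WT (7.19 ± 1.40 CPM, SD, n = 4), KO (39.4 ± 3.80, n = 3) and late WT (78.5 ± 25.2, n = 4), with the step from early WT to KO called and the step from KO to late WT not. In the S6K1/S6K2 set it was early WT (8.48 ± 3.86, n = 4), DKO (15 ± 9.96, n = 3) and late WT (73.9 ± 19.6, n = 4), with the step from early WT to DKO not called and the step from DKO to late WT called. *Ncf1* had the same order of groups, with means of 8.74, 40.9 and 76.7 CPM in one set and 10.6, 18.6 and 76.4 CPM in the other. *Nox4* had a different order of means in both sets, with late WT lowest, early WT next and KO or DKO highest. In the S6K1/S6K2 set these were 15.3 ± 4.22, 18.7 ± 2.45 and 30.0 ± 6.83 CPM (SD), and in the S6K1 set 15.9, 18.4 and 24.4 CPM. The difference of *Nox4* between early and late WT was called in neither set.

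The balance between the phagocyte and the fibroblast catalytic subunit followed from these levels. The log2 ratio of *Cybb* to *Nox4* CPM, which compares reads and not molecules because the genes differ in length, was -1.35 ± 0.59 (SD, n = 4) in early WT, 2.27 ± 0.54 (n = 4) in late WT and 0.69 ± 0.33 (n = 3) in KO MEFs. The values of the S6K1/S6K2 set were -1.26 ± 0.62 (n = 4), 2.27 ± 0.53 (n = 4) and, for DKO MEFs, -1.17 ± 1.18 (n = 3). All 8 early WT libraries had fewer *Cybb* than *Nox4* reads and all 8 late WT and 3 KO libraries had more. The 3 DKO libraries were at 0.18, -1.67 and -2.01.

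Per kilobase of exon (GENCODE vM1), *Cyba* was the most abundant of the 6 mRNAs in every group, with means from 204 to 389 CPM per kilobase. In early WT MEFs of the S6K1 set *Cybb* was at 1.24, *Ncf1* at 2.42, *Ncf4* at 1.17, *Rac2* at 2.39 and *Nox4* at 2.17 CPM per kilobase. In late WT MEFs of that set the level of *Cybb* was 13.5, that of *Ncf1* 21.2, that of *Ncf4* 9.62, that of *Rac2* 13.1 and that of *Nox4* 1.88 CPM per kilobase. In DKO MEFs *Cybb*, at 2.58, and *Nox4*, at 3.54 CPM per kilobase, were near each other again.

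Markers of macrophages moved with the phagocyte genes. All 20 macrophage markers, which include *Ptprc*, *Adgre1*, *Csf1r* and *Itgam* and none of the 6 oxidase genes, rose with passage in both sets, with median log2 fold changes of 2.95 and 2.54. Among all tested genes 6.96% and 8.28% were called higher with passage. The summed level of the markers was 549 to 1187 CPM in early WT, 5766 to 11970 CPM in late WT and 3867 to 5219 CPM in KO libraries of the S6K1 set. It was 642 to 2163 CPM in early WT, 7923 to 13550 CPM in late WT and 999 to 3677 CPM in DKO libraries of the S6K1/S6K2 set. In DKO MEFs all 20 markers were fitted lower (median -2.37), and 18 were called lower, all but *Tyrobp* and *Cd53*. In KO MEFs all 20 were fitted lower (median -0.87) and 0 were called (edgeR), where 0.0425% of tested genes were called in either direction. The share of tested genes called lower in DKO MEFs was 3.95%. The part of the markers in the oxidase results was not tested, and in these bulk libraries fewer cells of a type and less RNA per cell cannot be told apart.

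Relative to that marker sum, *Cybb* was at 8.80 ± 3.74 (SD) CPM per 1000 CPM of markers in early WT, 9.20 ± 0.87 in late WT and 8.71 ± 0.83 in KO MEFs. The ratio in the S6K1/S6K2 set was 6.32 ± 0.78 in early WT, 6.91 ± 1.25 in late WT and 8.19 ± 1.01 in DKO MEFs. Group means of this ratio lay within 1 SD of each other in the S6K1 set, whereas *Cybb* itself ranged from 7.19 to 78.5 CPM. *Ncf1* was at 10.5, 8.73 and 8.99 in one set and at 7.39, 7.16 and 10.95 in the other. *Rac2* was at 8.29, 4.59 and 5.89 and at 5.95, 3.85 and 4.94, lower per marker in late than in early WT means.

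*Cyba* and *Nox4* did not keep a fixed ratio to the markers. *Cyba* was at 189 CPM per 1000 CPM of markers in early WT and 37.1 in late WT MEFs of the S6K1 set, and *Nox4* at 22.3 and 2.04. In the S6K1/S6K2 set the ratio of *Cyba* was 150.5 in early WT, 24.8 in late WT and 119 in DKO MEFs. That of *Nox4* was 16.6 in early WT, 1.505 in late WT and 23.1 in DKO MEFs, where single libraries ranged from 6.36 to 37.05. Across all 22 libraries, which share 6 groups, the Pearson correlation with the log2 marker sum was 0.98 for *Cybb* and *Ncf1*, 0.97 for *Rac2*, 0.91 for *Ncf4*, 0.83 for *Cyba* and -0.37 for *Nox4*. After each library was centred on its group mean it was 0.87, 0.90, 0.87, 0.67, 0.68 and -0.23 in the same order of *Cybb*, *Ncf1*, *Rac2*, *Ncf4*, *Cyba* and *Nox4*.

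**Figure D3:**
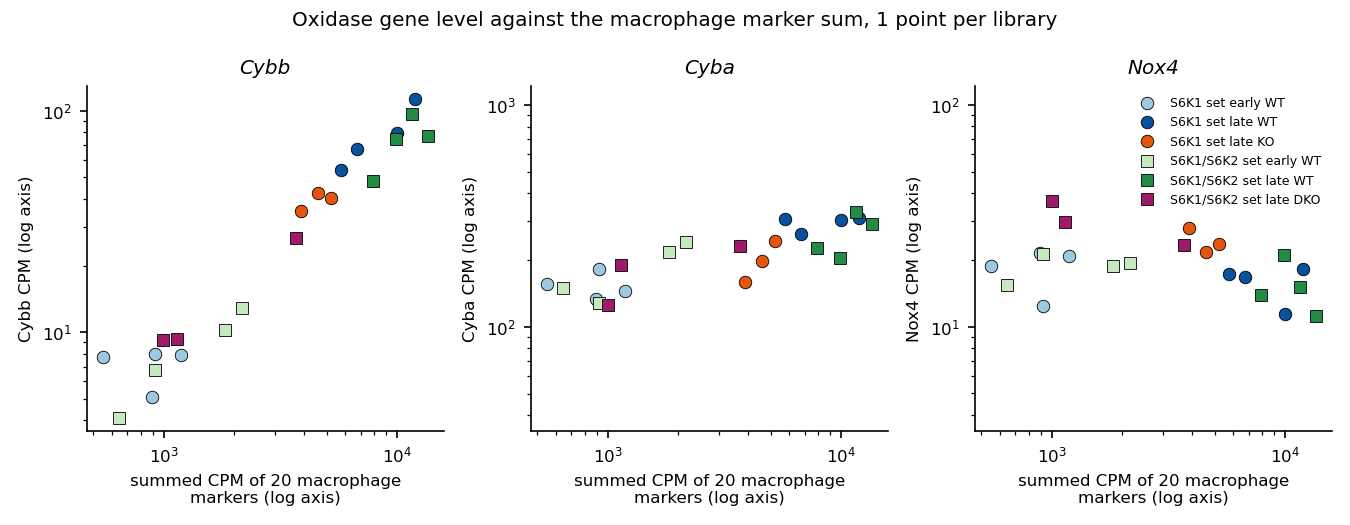
CPM of *Cybb*, *Cyba* and *Nox4* (y axes, log scale, equal spans) against the summed CPM of 20 macrophage markers (x axis, log scale) in each of 22 libraries (points, coloured by group). *Cybb* rises along the whole range of the marker sum, from 549 to 13550 CPM, *Cyba* rises less and *Nox4* does not rise.

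Markers of neutrophils, lymphocytes and mast cells were at or near 0. The 10 neutrophil markers, among them *S100a8*, *Ly6g* and *Mpo*, summed to at most 0.737 CPM in any library, the 9 markers of T, B or NK cells to at most 0.400 CPM and the 4 mast cell markers to at most 0.371 CPM. None of them passed the filter in any fit. The 4 megakaryocyte or platelet markers summed to 7.26 to 50.4 CPM, the 5 endothelial markers to 2.12 to 11.5 CPM and the 4 epithelial markers to 1.09 to 51.3 CPM. For these 3 sums the late WT range overlapped the early WT range or lay under it in both sets. Of the 3 megakaryocyte or platelet markers tested, *Pf4*, a platelet chemokine gene named here after its values were seen, rose with passage in the S6K1 set (log2 fold change 1.19, adjusted p = 0.0492, edgeR) and fell in DKO against late WT MEFs (-2.48, adjusted p = 0.0334). It did not rise with passage in the S6K1/S6K2 set, where all 3 had fitted log2 fold changes of -1.68 to -0.26 and 0 were called. The part of these cells in the oxidase results was not tested. Of the 10 fibroblast markers, 2 were called lower with passage in each set, *Col1a1* and *Col1a2*, where 5.97% and 4.89% of tested genes were. In each set 0 were called higher, and 7 were fitted lower and 3 higher, with median log2 fold changes of -0.26 and -0.37.

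Of 15 other genes of the oxidase family, 14 were matched to an identifier, and 7 were tested in the S6K1 set and 8 in the S6K1/S6K2 set. *Rac1*, the widely expressed relative of *Rac2*, was at 416 and 515 CPM in early and late WT MEFs of the S6K1 set (log2 fold change 0.31, adjusted p = 0.145, edgeR). *Duoxa1*, a maturation factor of the dual oxidases, rose in DKO against early WT MEFs, with a log2 fold change of 1.96 (adjusted p = 0.0153, edgeR). Its level was low, at 4 to 9 counts in early WT and 13 to 24 counts in DKO libraries. It was the 1 of 8 called higher in that comparison, where 9.34% of tested genes were.

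Other catalytic oxidases, and the oxidase activator gene *Noxa1*, were barely detected or not at all. *Nox1* reached at most 12 counts in a library, *Nox3* at most 1 count, *Duox1* at most 13 counts and *Duox2* at most 2 counts. *Noxa1* had 0 counts in all 22 libraries, which allows at most 0.173 to 0.279 CPM in a library (3 counts, counting error only). *Cybb* and *Nox4* were therefore the NADPH oxidase catalytic subunits with the highest CPM in these cultures.

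The 15 genes that act in triggering the phagocyte enzyme moved largely with it. With passage 10 of 15 rose in each set, 0 fell, and the median log2 fold changes were 1.42 and 1.39. The shares of all tested genes called higher were 6.96% and 8.28%. *Vav1*, a guanine nucleotide exchange factor for Rac, had a log2 fold change of 2.94 ± 0.24 (SE; adjusted p = 1.93e-05, edgeR) and *Pik3cg*, the PI3-kinase of G protein-coupled receptors in leukocytes, of 2.67 ± 0.31 (adjusted p = 0.000194) in the S6K1 set. *Prex1*, another Rac exchange factor, had in the S6K1/S6K2 set a log2 fold change of 1.97 ± 0.20 (SE; adjusted p = 0.000223, edgeR) and *Hvcn1*, the proton channel that balances the charge moved by gp91phox, of 1.75 ± 0.22 (adjusted p = 0.000743).

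In DKO MEFs 9 of these 15 genes fell and 0 rose (median -1.72), where 3.95% of tested genes were called lower and 0.821% higher. *Pik3cd* had a log2 fold change of -1.97 ± 0.21 (SE; adjusted p = 0.00118, edgeR), and *Syk*, the kinase downstream of Fc receptors, of -1.72 ± 0.18 (adjusted p = 0.00118). In KO MEFs 12 of the 15 were fitted lower and 3 higher (median -0.59). Of these, 0 were called, where 0.0425% of tested genes were called in either direction. Against early WT, 8 of 15 were called higher in KO MEFs and 0 in DKO MEFs, where 5.93% and 9.34% of tested genes were.

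Of 8 transcription factors of blood cells, 6 were tested and 3 rose with passage in both sets and fell in DKO MEFs. Among all tested genes 6.96% and 8.28% were called higher with passage, and 3.95% lower in DKO MEFs. *Spi1* (PU.1), which binds the promoters of several oxidase genes in myeloid cells, had a log2 fold change of 3.15 ± 0.34 (SE; adjusted p = 0.000118, edgeR) with passage in the S6K1 set and of 2.97 ± 0.39 (adjusted p = 0.00104) in the S6K1/S6K2 set. In DKO MEFs it was -2.30 ± 0.42 (adjusted p = 0.0129). *Cebpa* and *Irf8*, factors of myeloid cells, had log2 fold changes of 1.99 and 2.36 with passage in the S6K1 set, and of 2.26 and 2.49 in the S6K1/S6K2 set. *Runx1* fell in the S6K1 set (log2 fold change -1.03, adjusted p = 0.000775) and not in the S6K1/S6K2 set (0.12), a difference that passed the interaction test (1.12 ± 0.20, adjusted p = 0.00662).

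**Figure D4:**
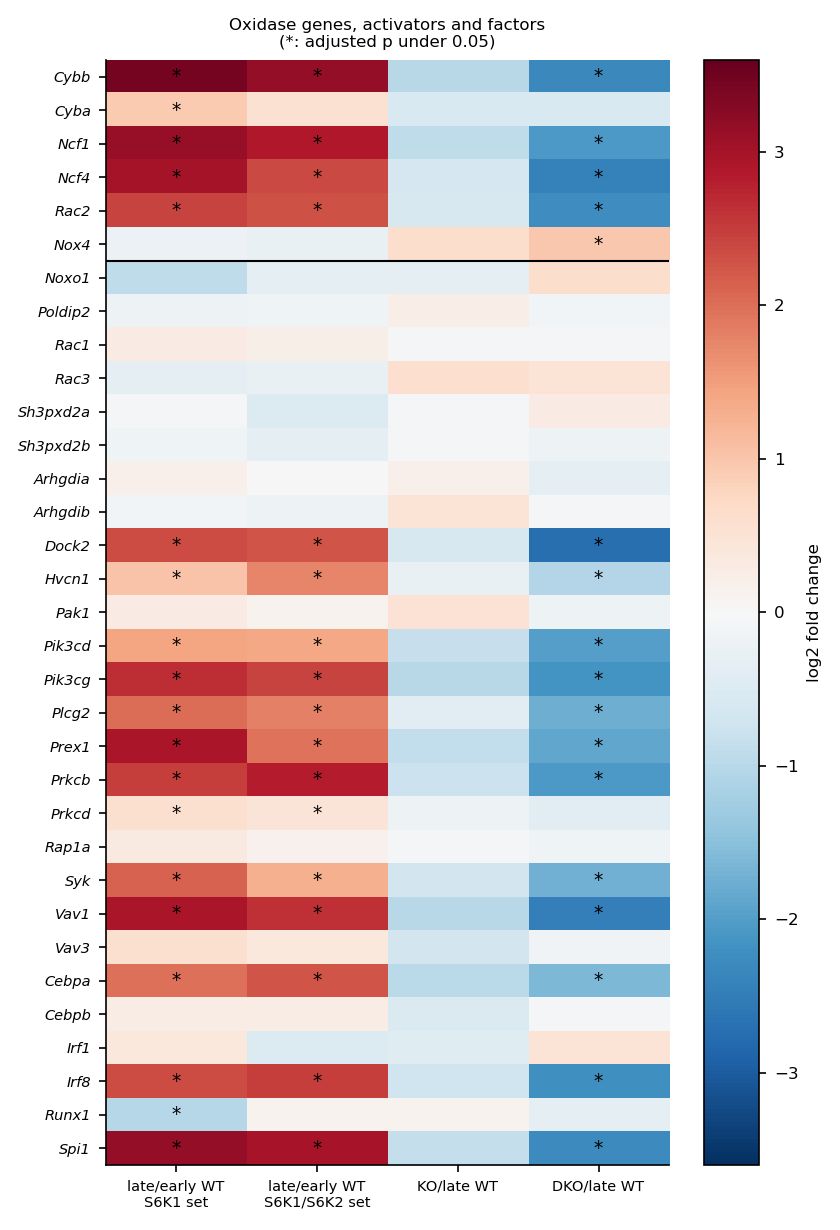
Log2 fold change (colour) of the 6 genes (above the line) and of other oxidase genes, activation genes and transcription factors tested in the S6K1 set (rows) in 4 comparisons (columns). Asterisks mark an adjusted p under 0.05 (edgeR). In the DKO column 9 of the 15 activation genes carry an asterisk, and in the KO column no gene does.

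Of 15 enzymes that remove superoxide and peroxide, 2 rose with passage in the S6K1 set, 3 in the S6K1/S6K2 set, and 1 fell in DKO MEFs, with median log2 fold changes of 0.21, 0.39 and 0.03. Over all genes tested, 6.96% and 8.28% were called higher with passage and 3.95% lower in DKO MEFs. *Cat* (catalase) was among the enzymes called in each of these comparisons. Its log2 fold changes were 0.58 ± 0.14 (SE; adjusted p = 0.0201, edgeR), 0.84 ± 0.10 (adjusted p = 0.000743) and, in DKO MEFs, -0.48 ± 0.11 (adjusted p = 0.0342). *Sod2*, the mitochondrial superoxide dismutase, rose in the S6K1/S6K2 set (0.65, adjusted p = 0.0391). Against early WT, 2 of 15 rose in KO and 5 of 15 in DKO MEFs, with median log2 fold changes of 0.29 and 0.37. The shares of all tested genes called higher in these 2 comparisons were 5.93% and 9.34%. The 3 smallest adjusted p in DKO MEFs belonged to the glutathione peroxidase genes *Gpx3* (1.53, adjusted p = 0.0315) and *Gpx8* (0.52, adjusted p = 0.0328) and to *Sod2* (0.67, adjusted p = 0.0350).

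Of 10 genes of the TGF-beta pathway, 0 were called in DKO MEFs against late WT, where 3.95% of all genes were lower and 0.821% higher, and 0 against early WT by edgeR, with median log2 fold changes of 0.03 and -0.03. Against late WT the smallest adjusted p was that of *Tgfbr1* (-0.47, adjusted p = 0.0892). *Tgfbr1* was also the 1 of 10 that rose with passage in each set, with log2 fold changes of 1.02 (adjusted p = 0.00189) and 0.89 (adjusted p = 0.00155). Among all tested genes 6.96% and 8.28% were called higher with passage. In S6K1 KO against late WT MEFs 0 of 10 were called, where 0.0425% of tested genes were, with 8 fitted higher and 2 lower (median 0.39). Against early WT 2 of 10 were called higher in KO MEFs (median 0.5), where 5.93% of tested genes were.

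The genes whose pattern over the 22 libraries was most like each oxidase gene were found by Pearson correlation of log2 CPM over 13004 genes of at least 1 CPM. The libraries share 6 groups, so these values describe the pattern and carry no test. For *Cybb* they were *Clec12a* (0.99), *Ncf1* (0.99) and *Cxcl16* (0.99), and for *Ncf1* *Trem2* (0.99), *Mpeg1* (0.99) and *Cybb* (0.99). For *Ncf4* they were *Slc11a1*, *Arhgap9* and *Aoah* (each 0.97), and for *Rac2* *Lcp1*, *Tlr13* and *Tm6sf1* (each 0.98). *Cyba* was most like *Ccdc12* (0.91), *Mkrn1* (0.91) and *Cd300a* (0.90), with lower values than the other phagocyte genes. *Nox4* was most like *Nell2* (0.87), the matrix metalloproteinase gene *Mmp2* (0.82) and the growth factor gene *Pdgfc* (0.81).

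Among the 6 genes themselves the highest correlation was that of *Cybb* and *Ncf1*, at 0.99 over the libraries and 0.91 after each library was centred on its group mean. *Cybb* and *Rac2* had 0.95 and 0.77, *Cybb* and *Cyba* 0.82 and 0.68, and *Cybb* and *Ncf4* 0.86 and 0.34. *Nox4* had negative values with every other gene, from -0.53 with *Cyba* to -0.27 with *Ncf4*.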

How the data were processed

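Raw read counts per gene were deposited by the authors, 1 column per library. Per the study's methods, poly(A) RNA libraries were aligned with TopHat to mm9 and counted with HTSeq. The submitters' processing notes name STAR 2.7.1a and mm10, and which was used for these counts could not be settled. Gene names came from the files' Ensembl identifiers through the tables given, with 32589 of 55401 named, holding 96.98% of counts. The 6 genes and all lists were chosen with earlier results of these data known.

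Each set of 11 libraries was fitted with edgeR 4.0.16 (R 4.3.3): filterByExpr, TMM scaling, robust quasi-likelihood test, Benjamini-Hochberg adjustment over all genes, and a threshold of 0.05. Interactions used all 22 libraries. Levels are CPM with TMM factors over the 22 libraries. The log2 CPM of genes in the correlations used a prior count of 2. The log2 marker sum and the log2 ratio of *Cybb* to *Nox4* were taken without a prior count. Of each list, at most 3 genes with the smallest adjusted p per comparison were named with values, besides undetected oxidase genes and gene names given as examples of marker lists. Same-group libraries differed beyond sampling noise (lowest chi-square per degree of freedom 20.6 over 30 pairs). DESeq2 1.42.0, RLE scaling, no filter, a Y-linked covariate, other groups in the fit and leaving out each library were the alternatives. Promoter sequences were copied from a RefSeq table, which held windows for 4 of the 6 genes. The result for 1 gene of the oxidase list is not reported here.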

Additional observations from a re-analysis of the deposited data

Results flagged for a closer look

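In the early WT group of the S6K1 set, *Cybb* in replicate 1 was at 5.09 CPM, against 7.74 to 8.00 CPM in the other libraries of the group. The gap took up 0.91 of the group's range, which is past the limit of Dixon's test for 4 libraries. This was 1 of 24 groups of 4 tested over the 6 genes, and chance passes that limit in about 1 in 20 groups. Late WT libraries of the set were at 54.1 to 113 CPM, and the log2 fold change of *Cybb* with passage was 3.34 without that library and 3.45 with it.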

How the results depend on the processing

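No paired analysis was possible because the labels give no replicate numbers that the groups share. The numbers of genes called out of 6 were 5 and 4 for passage under every alternative run, leaving out any 1 library included. For KO against late WT MEFs it was 0, and 1 with DESeq2. For DKO against late WT MEFs it was 5, 2 without a filter, 3 with the Y-linked covariate, 4 with only the groups compared in the fit, and 1 to 5 leaving out 1 library. For KO against early WT MEFs it was 4, 3 without a filter or with the Y-linked covariate, and 3 to 4 leaving out 1 library. For DKO against early WT MEFs it was 1, 0 with the Y-linked covariate, and 0 to 1 leaving out 1 library. Neither interaction had a call under any alternative. The causes of these changes were not tested.

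Direction changed only for values near 0. The log2 fold change of *Cyba* in DKO against early WT MEFs was -0.025 without a filter, -0.010 with all 6 groups in 1 fit and -0.21 to 0.20 leaving out 1 library, and those of *Ncf4* and *Rac2* were -0.42 to 0.15 and -0.53 to 0.31. Leaving out 1 library, the interaction of passage and set was -0.53 to 0.068 for *Ncf1*, -0.47 to 0.052 for *Rac2* and -0.27 to 0.073 for *Nox4*, and that of genotype and set -0.16 to 0.24 for *Cyba*. Of 924 refitted values for single genes, 866 kept direction and call. Without TMM factors all 36 group levels moved by less than 1 SD. Of the 3 genes most like each member, those shared with the ranking by deviations from group means numbered 0 for *Cybb* and *Cyba*, 1 for *Ncf1* and *Rac2*, 2 for *Nox4* and 3 for *Ncf4*.

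Calls over all genes moved more: 1827 with passage in the S6K1 set were 3265 with the covariate, 6 for KO were 250 with DESeq2, 43 without a filter, 38 with the covariate and 16 with all groups, 686 for DKO were 1172 with DESeq2, and 1578 for KO against early WT were 2555 with DESeq2 and 2564 with all groups. The interactions had 106 and 1 calls, and 218 and 63 with DESeq2. Leaving out 1 library gave 885 to 2247 calls for passage in the S6K1/S6K2 set, 97 to 783 for DKO, 540 to 2055 for KO against early WT and 1163 to 2757 for DKO against early WT. Read depth limits *Ncf4*, at 1 to 72 counts in early WT libraries.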
